A study of Mus with 8 samples.

Results

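The genes described here are 8 drivers and tumour suppressors of pancreatic cancer: Trp53, Mdm2, Cdkn1a, Cdkn2a, Cdkn2b, Smad4, Myc and Arid1a. They were chosen by name, and their probes were found by matching the RefSeq accession that the array files give for each non-control probe. This gave 16 probes for the 8 genes, out of 56605 probes and 22911 named genes on the array. Trp53 and Arid1a have 1 probe each, Smad4 has 4, and the other 5 genes have 2 each.

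Expression was measured in 8 whole subcutaneous tumours, each hybridised to 1 single-colour Agilent mouse array. Pan02 cells, a pancreatic cancer line of the mouse, had been transplanted into the hosts, and tumours were taken 36 to 40 days later. The 4 Mutant hosts carried floxed Ext1 alleles together with an S100a4-Cre transgene (Ext1 flox/flox; S100a4-Cre), and the 4 Control hosts were wild type, both on a B6 background. Ext1 encodes a polymerase of heparan sulfate chains, and Cre driven by S100a4 acts in fibroblasts but is known to reach some immune and other host cells too. The transplanted cells are the same in both groups and keep their own Ext1. The comparison therefore asks how tumours of 1 cancer cell line differ between wild-type hosts and hosts whose genotype is designed to delete Ext1 in this lineage.

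The 8 genes belong to a few linked brakes and accelerators of the cell cycle. The transcription factor p53, encoded by Trp53, induces the cyclin-dependent kinase inhibitor p21 (Cdkn1a) and its own ubiquitin ligase Mdm2. Cdkn2a encodes p16 and, from another reading frame, p19ARF, which blocks Mdm2, while its neighbour Cdkn2b encodes p15. Both p16 and p15 inhibit the kinases that inactivate the retinoblastoma protein. Smad4 is the shared partner of the SMAD proteins that carry TGF-beta signals to the genome, and p15 is a known target of that pathway. Myc drives growth and ribosome production, and Arid1a is the DNA-binding subunit of the SWI/SNF chromatin remodelling complex. Loss of Trp53, Cdkn2a or Smad4 is frequent in pancreatic cancer, and Arid1a is mutated in a part of them.

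Each level is a log2 signal minus that array's own 75th percentile, so that a step of 1 is a 2-fold change in signal, and they compare tumours for a given probe but not 1 probe with another. Differences are Mutant minus Control. Per array, 61.5% to 67.2% of probes passed the scanner's background test, and 0 spots were saturated. Among markers of the cancer line's labelled origin, Krt8, Krt18, Krt19, Sox9 and Pdx1 were above background on every array, whereas no array had Epcam well above background. Ext1 itself stood at 3.15 ± 0.22 in Mutant and 3.07 ± 0.76 in Control tumours, and S100a4 at 8.43 ± 0.35 in Mutant and 8.19 ± 0.54 in Control tumours (SD, n = 4 each). Where on Ext1 its probe sits relative to the floxed stretch was not established, so its level checks neither the deletion nor the labels. Control 4 stood apart from the other tumours, with the highest level of the 8 for 22.4% and the lowest for 35.2% of the 16068 genes tested.

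No driver or suppressor gene differed between the hosts beyond the spread between tumours. Of the 16 probes, 15 passed the background test on at least 4 arrays and were tested, and 0 of these were called by limma at an adjusted p under 0.05 (adjusted p = 1.00 for each). Over all 36824 probes tested 0 were called too (0%). At an unadjusted limma p under 0.05 there were 0 member probes, where 3.07% of all probes passed, and the groups overlapped for every member probe, where 1.66% of all probes separated them. The differences of the 15 probes had a median of -0.17, against -0.01 over all probes. They were below 0 for 14 probes and above 0 for 1, and 52.3% of all probes were below 0. Probes of the same gene share their transcript and all tumours share 1 set of arrays, so the 14 are not independent. The smallest unadjusted limma p among them was 0.179, for a probe of Mdm2. Of the marker lists, the 2 whose levels had the smallest two-sided exact permutation p are given beside these differences. In both lists 0 genes were called, and neither list level passed its test. For the fibroblast, macrophage, T cell and endothelial lists the two-sided exact permutation p was 0.571 to 0.971. The lists were chosen with earlier results of these data known, so these p-values only describe them. All 6 skeletal muscle markers were higher in Mutant tumours, by 2.05 to 4.14, and 5 had an unadjusted limma p under 0.05, where 2.95% of all genes passed. Myh1, with the largest difference, was above background on 7 of the 8 arrays, and Ckm on 5. The summed signal of the 6 was 5578 to 41182 units in Mutant and 768.1 to 9792 units in Control tumours (two-sided exact permutation p = 0.0857 for the list level). For 8 duct and epithelial markers, markers of the labelled origin of the cancer cells, the difference in list level was -0.37 (two-sided exact permutation p = 0.0571), with a summed signal of 123576 to 187600 units in Mutant and 153837 to 215287 units in Control tumours. Of these 8, 3 were lower in Mutant tumours at an unadjusted limma p under 0.05. Among them Sox9 did not overlap between the groups, as for 1.42% of all genes. With a single tumour left out, the number of these markers lower at that unadjusted limma p ranged from 0 to 4. It was 0 without Control 4 and without Mutant 1, 2 or 4. The part of either list in the members' differences was not tested. In whole tumours, fewer cells that express a gene and less RNA in each such cell cannot be told apart.

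**Figure D1:**
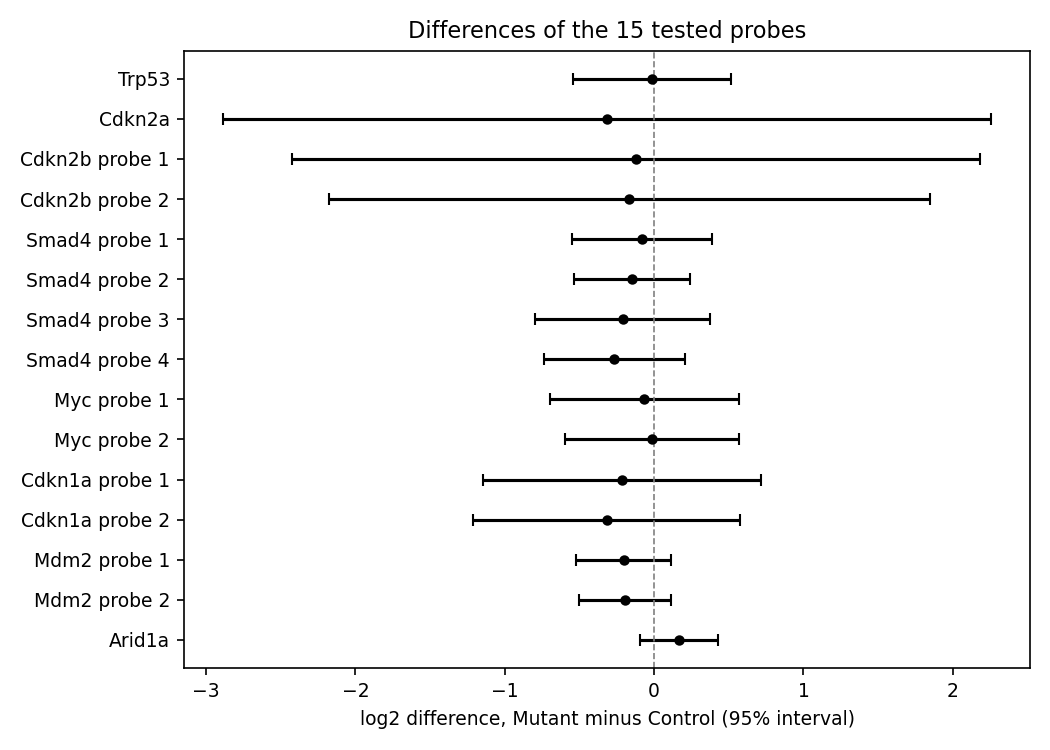
Log2 differences, Mutant minus Control, for the 15 tested probes of the 8 genes, with 95% intervals from limma (4 tumours per group). Every interval spans 0, and those of Cdkn2a and Cdkn2b are by far the widest, reaching from -2.89 to 2.26 for Cdkn2a.

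The pair of inhibitor genes Cdkn2a and Cdkn2b showed the widest variation, and it ran between tumours of the same host type. The brighter Cdkn2a probe (A_55_P2008437) was at -2.21, -0.22, -3.27 and -2.98 in Mutant 1 to 4 and at -3.69, -3.02, -1.997 and 1.28 in Control 1 to 4. The brighter Cdkn2b probe (A_52_P498241) was at -1.47, 0.60, -2.50 and -1.90 in Mutant 1 to 4 and at -2.28, -1.86, -2.29 and 1.63 in Control 1 to 4. Mutant 2 and Control 4 thus stood above the other 6 tumours for both genes, and these other tumours from the 2 host types were intermixed. Against the median of the other 6 tumours, Cdkn2a was 6.86-fold higher in Mutant 2 and 19.5-fold higher in Control 4, and Cdkn2b was 6.44-fold higher in Mutant 2 and 13.2-fold higher in Control 4. The within-group SD of Cdkn2a, 1.84, was larger than that of 98.5% of all probes tested, and that of Cdkn2b, 1.65, larger than that of 97.9%. These are descriptions of single tumours and carry no test.

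The second probe of each gene gave the same order of these tumours. The dimmer Cdkn2b probe (A_55_P1988183) was at -0.37 in Mutant 2 and 0.78 in Control 4, and at -3.14 to -2.15 in the other 6 tumours. The dimmer Cdkn2a probe (A_51_P144813) passed the background test on 1 Mutant and 1 Control array only, those of Mutant 2, at -5.78, and Control 4, at -3.89. On the other 6 arrays it was not well above background, so it was not tested. Both Cdkn2a probes are annotated to the same transcript, and whether they lie in sequence shared by p16 and p19ARF is not known here, so the products cannot be told apart.

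Between the groups, the Cdkn2a means were -2.17 ± 1.37 in Mutant and -1.86 ± 2.21 in Control tumours (SD, n = 4 each), and they differed by -0.31 (limma SE 1.12, two-sided exact permutation p = 0.800). This is 0.804-fold with a 95% interval of 0.135 to 4.78, so changes of several fold either way could not have been seen. For Cdkn2b the means were -1.32 ± 1.34 in Mutant and -1.20 ± 1.90 in Control tumours, a difference of -0.12 (two-sided exact permutation p = 0.857). The 95% interval of the Cdkn2b fold was 0.186 to 4.55. Without Control 4 the Cdkn2a difference was 0.73 and the Cdkn2b difference 0.82, and without both Mutant 2 and Control 4 they were 0.08 and 0.19. Without Mutant 3 they were 0.051 and 0.27, and without Mutant 4 that of Cdkn2b was 0.075, so the sign of neither difference held when single tumours were left out.

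Some fibroblast markers, though not all, were high in the same tumours. Of 7 markers measured, Col1a1, Col1a2, Col3a1 and Lum were higher in both Mutant 2 and Control 4 than in any of the other 6 tumours, a pattern that 9.32% of all genes tested showed. Pdgfrb, a receptor of fibroblasts and pericytes, was lower in both than in the others, and Pdgfra and Dcn did neither. The marker level, the mean of the centred log2 signals of the 7 genes, was 0.13, 0.98, -0.85 and -0.12 in Mutant 1 to 4 and -0.41, 0.17, -1.51 and 1.61 in Control 1 to 4. The genes were not scaled to a common spread, so those with wide ranges weigh most in this level. Col1a2 ran from 3.72 to 9.26 over the 8 tumours, but Pdgfra only from 2.21 to 3.56 and Pdgfrb from 3.26 to 4.39. The summed signal of the 7 markers ranged from 126344 to 519890 units in Mutant and from 61849 to 834345 units in Control tumours, and no marker was below background on any array. Among 5 T cell markers, 3 were also higher in Mutant 2 and Control 4 than in the others. The T cell summed signal ranged from 2693 to 4117 units in Mutant and from 1990 to 4986 units in Control tumours. Of 8 duct and epithelial markers, 1, Krt7, was higher in Mutant 2 and Control 4 than in the other 6 tumours. In Control 4, 5 of these 8 were at their highest and 2 at their lowest, against 22.4% and 35.2% of all genes tested. The part of any of these cell types in the Cdkn2a and Cdkn2b levels was not tested.

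**Figure D2:**
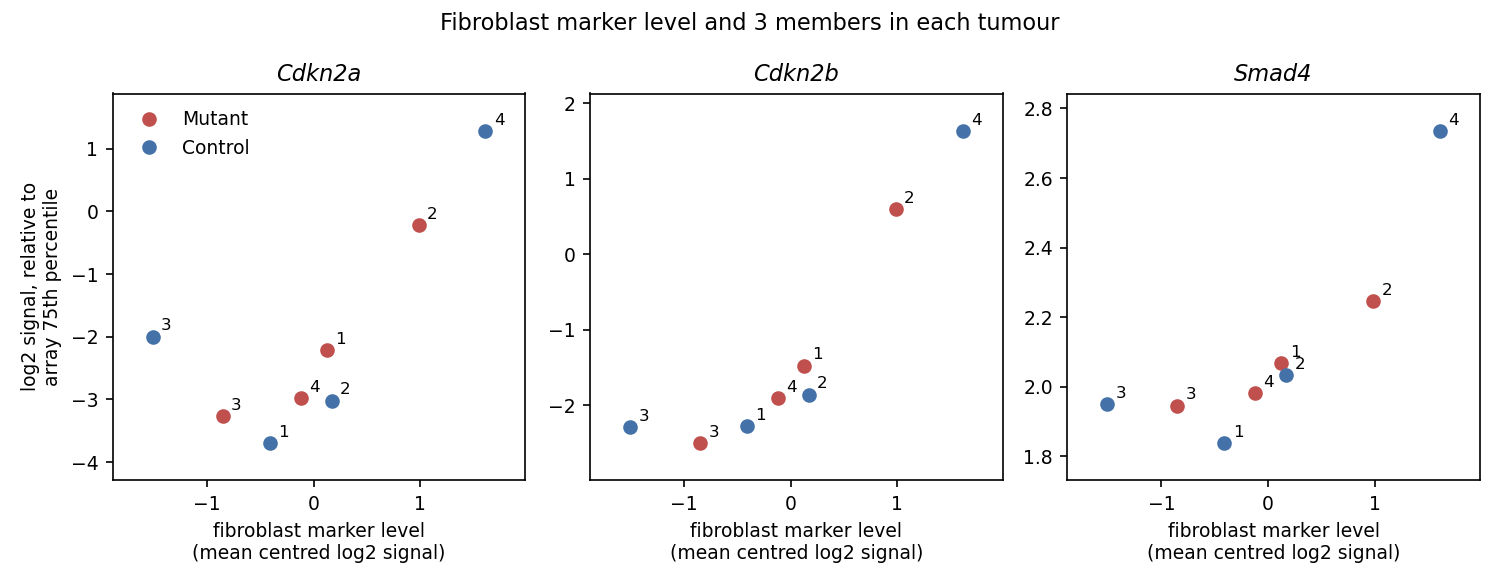
Level of the brightest probe of Cdkn2a, Cdkn2b and Smad4 (vertical axis, log2 signal relative to the array's 75th percentile) against the fibroblast marker level (horizontal axis, mean centred log2 signal of 7 genes) in each tumour, numbered by replicate, with Mutant tumours in red and Control tumours in blue. Mutant 2 and Control 4 lie at the upper right of each panel, and Control 3, with the lowest marker level of -1.51, has the third-highest Cdkn2a level.

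Because Cdkn2a and Cdkn2b fall into 2 high tumours and 6 low ones, correlations with them were computed over the 6 alone. Over these, Cdkn2b and the fibroblast marker level had r = 0.76 (two-sided exact permutation p = 0.0694) and rho = 0.89 (p = 0.0333), adjusted over 8 members to 0.139 and 0.0889. For Cdkn2a the same 6 tumours gave r = -0.26 (two-sided exact permutation p = 0.628) and rho = -0.09 (p = 0.919). Cdkn2a and Cdkn2b themselves were not clearly related within the 6 tumours, at r = 0.41 (two-sided exact permutation p = 0.428) and rho = 0.26 (p = 0.658). Control 3 contributes to this, with the third-highest Cdkn2a level of the 8 tumours and a Cdkn2b level among the low ones.

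Cdkn2a and Cdkn2b are next to each other on chromosome 4, in the gene order of the RefSeq table. Their nearest measured neighbour on the Cdkn2a side is Mtap, which encodes an enzyme of methionine salvage. Mtap was at 2.35, 3.06, 2.74 and 3.06 in Mutant 1 to 4 and at 2.28, 3.24, 2.78 and 2.17 in Control 1 to 4. Control 4 therefore had the lowest Mtap level and the highest Cdkn2a and Cdkn2b levels. Of the 4 tested genes within 4 places of Cdkn2a, Cdkn2b and Ifna1 were higher in both Mutant 2 and Control 4 than in the other 6 tumours, and Mtap and Zfp352 were not. On the Cdkn2b side, Dmrta1 was not well above background on enough arrays to be tested. The look at neighbours was chosen after the pattern of the pair was seen.

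Smad4 was evenly expressed in 7 of the 8 tumours and higher in Control 4. Its brightest probe (A_52_P611867) was at 2.07, 2.25, 1.95 and 1.98 in Mutant 1 to 4 and at 1.84, 2.03, 1.95 and 2.74 in Control 1 to 4. All 4 Smad4 probes had their highest level in Control 4, at 1.58-fold to 2.05-fold the median of the 6 tumours other than Mutant 2 and Control 4. Mutant 2 came next on the brightest probe only. On the dimmest probe Mutant 2 was at -3.60, below the median of -3.50 in those 6 tumours. The group means of the brightest probe were 2.06 ± 0.13 in Mutant and 2.14 ± 0.41 in Control tumours (SD, n = 4 each), a difference of -0.08 (two-sided exact permutation p = 0.886). Differences of the other probes were -0.15, -0.21 and -0.27, and the 95% intervals of the 4 folds together spanned 0.576 to 1.31. Without Control 4 the differences of the first 3 probes turned positive, to 0.12, 0.00243 and 0.06, while the dimmest stayed at -0.09.

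The brightest Smad4 probe also followed the fibroblast marker level, and the other Smad4 probes were not compared with it. Between pairs of Smad4 probes, r over the 8 tumours ran from 0.79 to 0.96 and rho from 0.19 to 0.90. For the brightest probe and the marker level, the coefficients were as follows. Over the 8 tumours r was 0.84 (two-sided exact permutation p = 0.00407, adjusted over 8 members 0.0163) and rho 0.88 (p = 0.00724, adjusted 0.0290). Without Control 4 and Control 3, the tumours farthest from the median marker level, r was 0.88 (two-sided exact permutation p = 0.0375), which did not pass after adjustment (0.0917). With arrays centred on their medians the coefficient was 0.72 and the adjusted p 0.112 (two-sided exact permutation). Mutant 2 and Control 4 had both the highest marker levels and the highest levels of the brightest Smad4 probe. A correlation of Smad4 with the marker level without both of them was not computed, so how far it rests on this pair is not known. The relations with the marker level were looked at after the values were seen. How many of all genes reach such an r was not computed. Control 4, with the highest marker level, had the highest level of 22.4% and the lowest of 35.2% of all genes tested. The rows of the slide hold 4 tumours each, too few for a correlation within them. Over the 6 lower tumours Smad4 and Cdkn2b had r = 0.77 (two-sided exact permutation p = 0.0653) and rho = 0.83 (p = 0.0583), adjusted over 6 pairs to 0.196 and 0.175.

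Of 13 other SMAD factors and regulators, 12 were measured and 0 were called in either direction. They had 6 differences above 0 and 6 below, and a median of 0.00264, against 0.01 over the 16068 genes tested. The 3 of smallest p were Smurf1, a ubiquitin ligase of SMAD proteins, at -0.24, the TGF-beta effector Smad2 at 0.27 and the SMAD repressor Skil at 0.19 (limma adjusted p = 1.00 for each). In Control 4, 8 of the 12 were at their lowest, opposite to Smad4, and 35.2% of all genes were lowest in that tumour too. Smad9 did not pass the background test on any of the 8 arrays.

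Among the brightest probes of the 8 genes, that of Trp53 had the difference closest to 0. It was at 1.77, 1.53, 1.92 and 1.81 in Mutant 1 to 4 and at 2.06, 1.82, 2.11 and 1.10 in Control 1 to 4 (probe A_52_P491849). The means were 1.76 ± 0.16 in Mutant and 1.77 ± 0.46 in Control tumours (SD, n = 4 each). They differed by -0.01 (two-sided exact permutation p = 0.943), and the 95% interval of the fold was 0.686 to 1.43. Control 4 and then Mutant 2 had the lowest levels, the reverse of Cdkn2a and Cdkn2b. Without Control 4 the difference was -0.24, and without Control 1, 2 or 3 or Mutant 2 it was above 0.

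Trp53 levels ran opposite to the fibroblast marker level, a relation also looked at after the values were seen. Relations with the other marker lists were not computed, and the adjustment over 8 members does not cover the choice of this list. Over the 8 tumours r was -0.93 (two-sided exact permutation p = 0.000645, adjusted over 8 members 0.00516) and rho -0.90 (p = 0.00456, adjusted 0.0290). Without Control 4 and Control 3 the coefficient was -0.87 (two-sided exact permutation p = 0.0458, adjusted 0.0917). It was -0.88 after quantile normalization and -0.92 with arrays centred on their medians. Control 4 and Mutant 2 had both the lowest Trp53 levels and the highest marker levels. A correlation of Trp53 with the marker level without both of them was not computed, so how far it rests on this pair is not known. The part of fibroblast content in the Trp53 and Smad4 levels was not tested.

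Mdm2 and Cdkn1a, both induced by p53, did not separate the host types either. The brighter Mdm2 probe (A_55_P1975475) was at 3.99, 4.09, 3.91 and 4.18 in Mutant 1 to 4 and at 4.16, 4.07, 4.56 and 4.19 in Control 1 to 4. Its means were 4.04 ± 0.12 in Mutant and 4.24 ± 0.22 in Control tumours (SD, n = 4 each), a difference of -0.20 (two-sided exact permutation p = 0.171). The second probe (A_55_P2606086) differed by the same amount, -0.20, and the 95% intervals of the 2 folds together ran from 0.696 to 1.08. Without Control 3 the differences were -0.10 for each probe. On the brighter probe Mutant 4 lay above Control 1 and Control 2 and Mutant 2 above Control 2, and on the second probe Mutant 2 lay above Control 1 and Control 2.

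The Cdkn1a probes varied more, and again within the Control group. The brighter probe (A_51_P363947) was at 1.04, 1.23, 0.65 and 1.26 in Mutant 1 to 4 and at 0.39, 0.75, 2.35 and 1.55 in Control 1 to 4. On this probe Control tumours held both the lowest and the highest levels, with all Mutant tumours between them. The means were 1.04 ± 0.28 in Mutant and 1.26 ± 0.88 in Control tumours (SD, n = 4 each), a difference of -0.22 (two-sided exact permutation p = 0.657) that turned to 0.15 without Control 3. The second probe (A_55_P1986282), annotated to another Cdkn1a transcript, differed by -0.32 and was highest in Control 4, at -2.86, rather than in Control 3, at -3.30. Its lowest level was in Mutant 3, at -4.59, below Control 1 at -4.46. The 95% intervals of the 2 Cdkn1a folds together ran from 0.432 to 1.64.

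**Figure D3:**
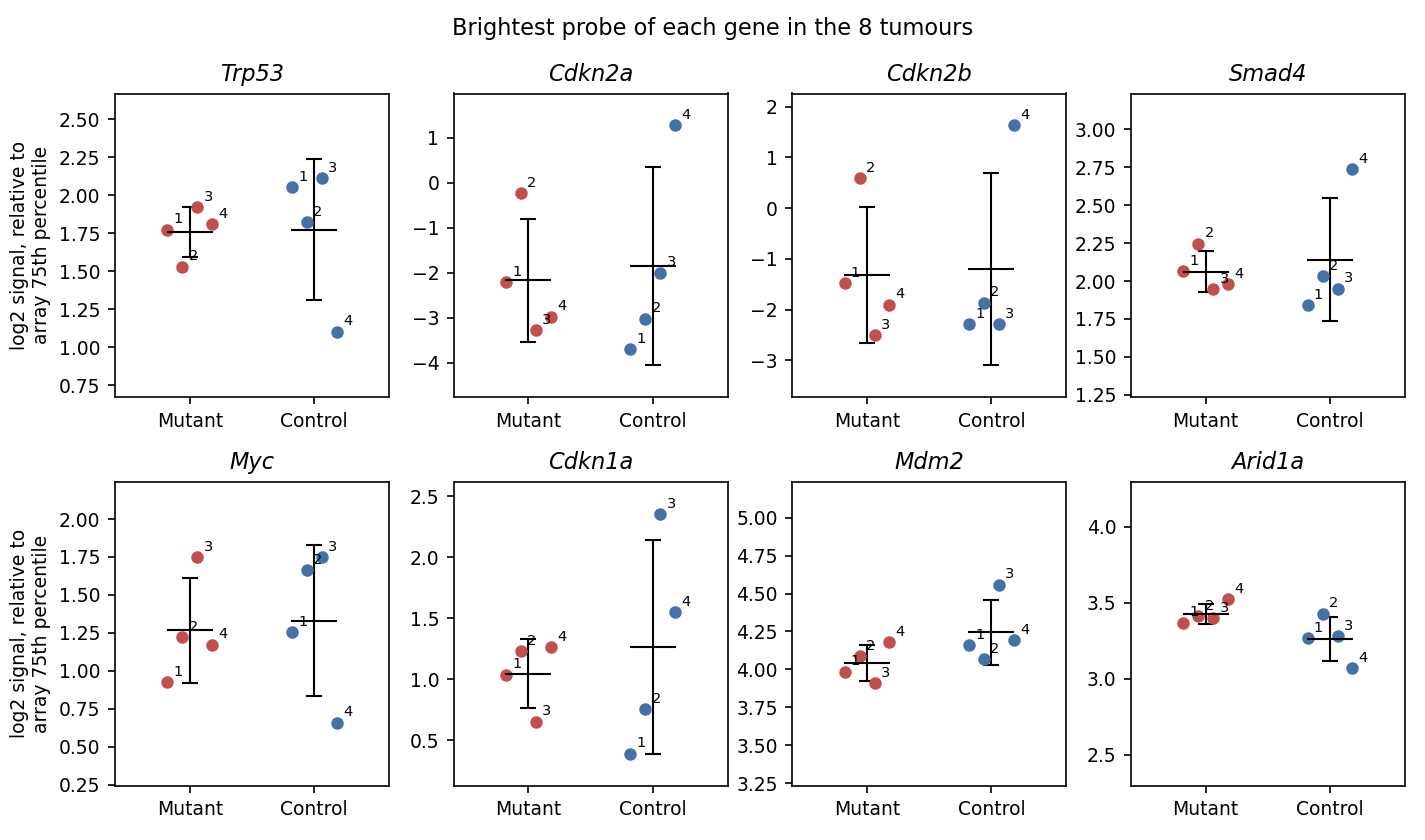
Log2 signal of the brightest probe of each of the 8 genes, relative to the array's 75th percentile, in Mutant (red, left) and Control (blue, right) tumours numbered by replicate, with the mean and SD of 4 tumours, each panel with its own axis. Mutant 2 and Control 4 are the highest for Cdkn2a and Cdkn2b and the lowest for Trp53, and the Control tumours spread over 0.39 to 2.35 for Cdkn1a.

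Of 20 further p53 target genes, all measured, 5 differences were above 0 and 15 below, with a median of -0.08 against 0.01 over all genes, and 0 were called. At an unadjusted limma p under 0.05 there were 2, both lower in Mutant tumours, where 2.95% of all genes passed. Gadd45a, a stress-induced brake of the cell cycle, was at 0.89, 0.91, 0.86 and 1.05 in Mutant 1 to 4 and at 1.34, 1.66, 1.61 and 1.31 in Control 1 to 4. The groups did not overlap, as for 1.42% of all genes, and the difference was -0.55, or 0.681-fold (two-sided exact permutation p = 0.0286, limma adjusted p = 1.00). Bbc3, which encodes the death-promoting protein PUMA, differed by -0.45 and overlapped between the groups (two-sided exact permutation p = 0.0571, limma adjusted p = 1.00). Polk, a DNA polymerase that bypasses lesions, differed by -0.39 (limma adjusted p = 1.00). The median of the list ranged from -0.16 to -0.0079 when single tumours were left out. Among 11 p53 regulators 6 differences were above 0 and 5 below, with a median of 0.01 and none called (0 also at an unadjusted limma p under 0.05). The kinase genes Hipk2 and Chek1 differed by 0.14 and -0.19, and the phosphatase gene Ppm1d by 0.12.

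Levels of the p53 genes were also compared with each other over the 8 tumours, as part of 6 pairs with a known regulatory link. Cdkn1a and Mdm2 had r = 0.81 (two-sided exact permutation p = 0.0245, adjusted over 6 pairs 0.147) and rho = 0.74 (p = 0.0458, adjusted 0.175). Without Control 3 and Control 1, r was 0.83 (two-sided exact permutation p = 0.0458). Trp53 had r = 0.20 with Mdm2 (two-sided exact permutation p = 0.578) and -0.13 with Cdkn1a (p = 0.733), with rho at 0.07 (p = 0.882) and -0.26 (p = 0.536). Without Control 4 and Control 3 these became 0.02 and -0.83 (two-sided exact permutation p = 0.971 and 0.0347, adjusted 0.971 and 0.131). No pair passed after adjustment.

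Myc was lowest in Control 4 and otherwise mixed between the host types. Its brighter probe (A_52_P108346) was at 0.92, 1.22, 1.75 and 1.17 in Mutant 1 to 4 and at 1.25, 1.66, 1.75 and 0.66 in Control 1 to 4. The means were 1.27 ± 0.35 in Mutant and 1.33 ± 0.50 in Control tumours (SD, n = 4 each), a difference of -0.06 (two-sided exact permutation p = 0.8286). The second probe (A_52_P278549) differed by -0.01, and the 95% intervals of the 2 folds together ran from 0.617 to 1.48. Over the 8 tumours Myc and the fibroblast marker level had r = -0.77 (two-sided exact permutation p = 0.0247) and rho = -0.74 (p = 0.0458), adjusted over 8 members to 0.0658 and 0.0917, and r was -0.42 without Control 4 and Control 3. Myc and Cdkn1a, which MYC is known to repress, had r = -0.01 (two-sided exact permutation p = 0.975) and rho = -0.19 (p = 0.665).

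Among the 9 MYC family members and partners 3 differences were above 0 and 6 below, with a median of -0.11 and 0 called. Mxi1, an antagonist that competes for the MYC partner MAX, was at 2.39, 2.81, 3.12 and 2.57 in Mutant 1 to 4 and at 3.29, 3.30, 3.32 and 3.18 in Control 1 to 4. The groups did not overlap, and the difference was -0.55, or 0.683-fold (two-sided exact permutation p = 0.0286, limma adjusted p = 1.00). Mxi1 was the 1 gene of this list at an unadjusted limma p under 0.05, where 2.95% of all genes passed, and the 1 gene whose groups did not overlap, where 1.42% of all genes separated them. The MYC relative Mycl, above background on 5 of 8 arrays, differed by 0.85, and Mga by -0.11 (limma adjusted p = 1.00 for both). The median was -0.00764 without Control 4 and 0.05 without Mutant 2 and Control 4.

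The MYC target genes, 15 of nucleolar function, nucleotide and polyamine synthesis, had 6 differences above 0 and 9 below, with a median of -0.05 and 0 called (0 also at an unadjusted limma p under 0.05). The balance depended on single tumours: without Control 3 there were 13 above 0 and 2 below with a median of 0.10, and without Control 4 there were 2 above and 13 below with a median of -0.14. With quantile normalization the median was 0.012. The growth regulator Pa2g4 differed by -0.38, the polyamine enzyme gene Odc1 by -0.23 and the ribosome assembly factor Rrs1 by 0.21. Like Myc, 11 of the 15 were at their lowest in Control 4, against 35.2% of all genes.

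Arid1a was the steadiest of the 8 genes and the only one with a positive difference in the tested probes. Its probe (A_55_P2743175) was at 3.37, 3.41, 3.40 and 3.52 in Mutant 1 to 4 and at 3.27, 3.43, 3.28 and 3.07 in Control 1 to 4. The means were 3.42 ± 0.07 in Mutant and 3.26 ± 0.15 in Control tumours (SD, n = 4 each), a difference of 0.16 (two-sided exact permutation p = 0.114). The fold was 1.12 with a 95% interval of 0.934 to 1.34. Control 2 overlapped the Mutant tumours, and without Control 4 the difference was 0.10. Its within-group SD of 0.11 was larger than that of only 5.45% of all probes.

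The other 18 SWI/SNF subunits measured had 11 differences above 0 and 7 below, with a median of 0.12 and 0 called (0 also at an unadjusted limma p under 0.05). Ss18 differed by 0.26, the bromodomain subunit gene Brd7 by 0.19 and Phf10 by -0.31. The median was -0.00110 without Control 4, where 13 of the 18 had their lowest level, against 35.2% of all genes.

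Genes of the retinoblastoma pathway that p16, p15 and p21 act on showed no called difference. Of 18 measured, 5 differences were above 0 and 13 below, with a median of -0.08 (0 called, and 0 at an unadjusted limma p under 0.05). The INK4 relative Cdkn2d differed by -0.25, and the kinase gene Cdk6 and the cyclin gene Ccnd3 by 0.33 and 0.20. All 10 proliferation genes were below 0, between -0.18 and -0.01 with a median of -0.09, and 0 were called (0 at an unadjusted limma p under 0.05). Over all 16068 genes tested, 7649 were below 0. Mki67, a marker of cycling cells, differed by -0.14, the replication licensing gene Mcm5 by -0.16 and the mitotic kinase gene Cdk1 by -0.18. The median of the 10 proliferation genes ranged from -0.25 to 0.10 when single tumours were left out. Without Control 3, 9 were above 0 and 1 below, and without Control 1, 5 were above and 5 below. In Control 4, 9 of the 10 were at their lowest, against 35.2% of all genes.

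**Figure D4:**
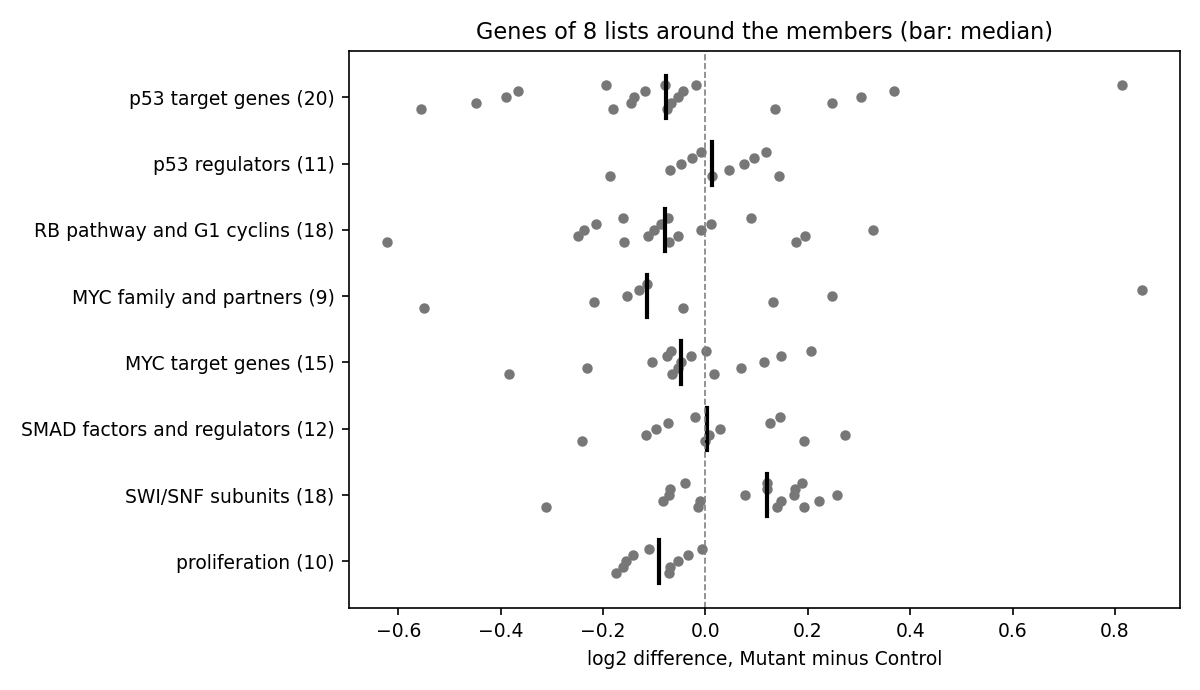
Log2 differences, Mutant minus Control, of the measured genes (grey points, number in brackets) in 8 lists around the members, with the median of each list as a black bar. Medians lie between -0.11 and 0.12, and the points of each list lie on both sides of 0 except for proliferation.

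The genes whose levels followed a member most closely differed from member to member. Likeness is Pearson's r over the 8 tumours after group means were removed, among 14832 named genes with 1 probe each. With so many genes and 8 tumours, high values arise readily, so these are descriptions. For Trp53 they were Ywhae (0.997), Mrpl11 (0.997) and Ociad1 (0.994), and for Smad4 Fkbp14 (0.993), Ankrd6 (0.992) and Layn (0.992). Cdkn2a was followed by Lgi2 (0.995), AA414768 (0.993) and Dnm1 (0.992), and Cdkn2b by Mmp23, Creb3l3 and Bcat1 (0.996 each). For Cdkn1a they were Irf9 (0.990), a transcription factor of the interferon response, B2m (0.990), the light chain of MHC class I, and Coro2a (0.989). Myc was followed by Rcl1 (0.989), Sars2 (0.983) and Mphosph6 (0.980), Mdm2 by Itgal (0.986), Ghrl (0.978) and Samd8 (0.975), and Arid1a by Hoxa3 (0.997), Zfp57 (0.981) and Usp33 (0.979).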

How the data were processed

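The deposited intensity is the processed signal that Feature Extraction 10.7.3.1, per the file headers, wrote for each spot (version 9.1, per the submitters' processing notes). The deposited flag columns carry no unit (other). The authors' deposited value table holds the same intensity for 99.5% of probes within 0.01%, unscaled, with column medians of 52.8 to 61.8.

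RNA of 4 Mutant and 4 Control tumours was compared. All arrays lay on 1 slide, in 2 rows with 2 tumours of each group in each. Outlier spots, 66 to 117 per array, and control spots were left out, spots of a probe averaged, and log2 signals centred on the array's 75th percentile. RefSeq accessions matched a gene table of GRCm38.p6 for 32994 probes. The array design names mm9, so no coordinates are given. Sequences of probes, promoters and proteins were not used here.

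Every probe well above background on at least 4 arrays (36824) was tested by itself in R 4.3.3 (limma 3.58.1, no covariates, Benjamini-Hochberg adjustment). Gene lists use the brightest probe of each gene (16068 genes). Single values were compared by two-sided exact permutation over 70 arrangements, where the smallest p is 0.0286. The number of arrays limits the precision. The labels give 4 mice per group but do not tie each tumour to a mouse, so p-values measure the spread between these tumours. The pipeline was tested on simulated data.

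The genes and lists were chosen with earlier results of these data known. Named genes are the 8 members with every probe, Ext1, S100a4, up to 3 genes of smallest p in each list, and the 3 genes of highest r with each member. Mtap and its neighbours, and the genes in the closing observations, were chosen after their values were seen. Alternatives were normexp (offset 50, on median spot signals), quantile and median scaling, other filters, 1 probe per gene, the value table, array weights, replicate and slide-row blocks, and leaving tumours out.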

Additional observations from a re-analysis of the deposited data

Results flagged for a closer look

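In groups of 4 tumours, 46 sets of values (15 probes and 8 list levels in each group) were searched for a tumour whose gap to its nearest neighbour took up more of the group's range than Dixon's 95% critical value, which chance gives in about 1 of 20 groups. It was found in 3. Mutant 2 had the highest level of the dimmer Cdkn2b probe among Mutant tumours, at -0.37, against -2.56 to -2.19 in the others. Control 4 had the highest level of the brighter Cdkn2b probe among Control tumours, at 1.63, against -2.29 to -1.86 in the others. Control 4 also had the lowest mean level of SWI/SNF subunits, -0.26, against 0.03 to 0.06 in the other Control tumours.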

How the results depend on the processing

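With 8 tumours on 1 slide, only large differences could be seen. No member probe and no listed gene was called under any of 21 alternatives, and no probe of the array under 20 of them. Within slide row 1 alone (2 against 2 tumours, a split chosen after the data were seen) 2 probes were called, of Gzmf and Cyp2e1. The number of probes at an unadjusted limma p under 0.05 was 1132, against 2422 with array weights, 3872 within slide row 1 and 597 to 2427 with a tumour left out. Same-numbered tumours did not deviate together (r -0.30 to 0.03), and the fit with the replicate number as a block called 0 probes, with 894 at an unadjusted p under 0.05.

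Of 308 differences of member probes under an alternative, 47 had the opposite sign, and the cause was not tested. With array weights these were 0.59 for Cdkn2a, 0.52 and 0.44 for Cdkn2b, 0.15 and 0.10 for Cdkn1a and 0.067 for the brightest Smad4 probe, and with quantile normalization 0.0011 for the dimmer Myc probe. Without Mutant 2 and Control 4, an alternative chosen after the data were seen, they were 0.082 for Cdkn2a, 0.19 and 0.16 for Cdkn2b, and 0.057 and 0.043 for 2 Smad4 probes. Within row 1 they were 2.14 for Cdkn2a, 1.63 and 1.37 for Cdkn2b, 0.56 and 0.49 for Cdkn1a, 0.22, 0.026 and 0.010 for 3 Smad4 probes and 0.021 for the dimmer Mdm2 probe. Within row 2 they were 0.26 and 0.29 for Myc and 0.26 for Trp53, while Cdkn2a was at -2.77. With the row as a block no sign turned.

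With a tumour left out, differences ranged from -0.96 to 0.73 for Cdkn2a, from -0.76 to 0.82 and -0.68 to 0.68 for Cdkn2b, from -0.18 to 0.12, -0.23 to 0.0024 and -0.36 to 0.056 for 3 Smad4 probes, from -0.29 to 0.075 and -0.21 to 0.11 for Myc, from -0.51 to 0.15 for the brighter Cdkn1a probe and from -0.24 to 0.10 for Trp53. The ranges for Mdm2 (-0.26 to -0.10), Arid1a (0.10 to 0.22), the dimmer Cdkn1a probe (-0.55 to -0.02) and the dimmest Smad4 probe (-0.38 to -0.09) kept their sign.

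Correlations that changed sign were Trp53 with Mdm2 (-0.22, quantile normalization), Trp53 with Cdkn1a (0.046, median centring) and Myc with Cdkn1a (0.12, median centring). Those with the fibroblast marker level were 0.063 for Mdm2 and 0.16 for Arid1a with quantile normalization, and 0.64 for Cdkn1a, 0.29 for Mdm2 and 0.19 for Arid1a without Control 4 and Control 3.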

Other observations

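Some genes near Trp53 and Smad4 on their chromosomes, picked after their values were seen, had Mutant 2 and Control 4 at the same extreme. Of 7 tested genes within 4 places of Trp53, 3 were lower in both tumours than in the other 6 (Kdm6b, Wrap53 and Fxr2), 1 was higher (Dnah2) and 3 were neither, among them Atp1b2, directly on the other side. Of 6 tested genes near Smad4, 1 was higher (Dcc), 1 lower (Mex3c) and 4 were neither, among them Elac1, directly on the other side. Over all genes tested, 9.32% were higher and 13.3% lower in both tumours. Wrap53, the next gene to Trp53 and a telomerase cofactor, was at 1.88, 1.82, 2.11 and 1.90 in Mutant 1 to 4 and at 2.10, 1.89, 2.18 and 1.73 in Control 1 to 4, with Control 4 lowest and Mutant 2 next, as for Trp53. Dcc, a netrin receptor gene that lies near Smad4, was at 6.91, 7.09, 6.80 and 6.86 in Mutant 1 to 4 and at 6.99, 6.70, 6.77 and 7.72 in Control 1 to 4. Control 4 and Mutant 2 were thus highest, as for the brightest Smad4 probe but not the other Smad4 probes. Mex3c, an RNA-binding protein gene directly beside Smad4, was at 2.84, 2.48, 2.99 and 3.34 in Mutant 1 to 4 and at 2.97, 3.17, 2.66 and 1.73 in Control 1 to 4, with the same tumours lowest. These are values of single tumours without a test.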
